A study of Mus musculus with 2 samples.

Results

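The genes of the visual cycle and of retinoic acid metabolism were followed in 661W, a line of mouse photoreceptor cells described as cone-like. They are 9 genes chosen by name: Rpe65, Lrat, Rlbp1, Rbp4, Stra6, Aldh1a1, Aldh1a2, Aldh1a3 and Cyp26b1. Each was read by 1 probe of the array, so 9 probes of the 39426 used and 9 of 29607 gene names are described. The choline-deficient sample was grown for 3 days in DMEM/F12 medium lacking choline, and the choline-sufficient sample for 3 days in the same medium with choline, which the labels put at 8.98 g/L, a figure that could not be checked here. Both cultures were of the same line in medium with fetal bovine serum. Total RNA from each condition was labelled with Cy3 and hybridised to 1 Agilent single-colour array. The design text mentions RNA pooled from 4 dishes without saying whether that was per condition. With 1 array per group there was no replicate check, no test was possible, and no p-value is given.

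Vitamin A travels in blood as retinol bound to the carrier RBP4 and enters cells through the receptor STRA6. In the retinal pigment epithelium, LRAT esterifies retinol with an acyl chain taken from phosphatidylcholine, the choline phospholipid, and RPE65 turns the ester into 11-cis-retinol, which the carrier CRALBP, encoded by Rlbp1, holds for return to the photoreceptors as 11-cis-retinal. In other cells retinol is oxidised to retinal and then, by the ALDH1A dehydrogenases, to retinoic acid, which regulates transcription through the nuclear receptors RAR and RXR. CYP26 enzymes such as CYP26B1 break retinoic acid down.

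The probes of Cyp26b1, Stra6, Rbp4 and the 3 Aldh1a genes are shown because each gene rests on a single 60-base sequence. They are given 5′ to 3′ as the array's files list them, with the polyadenylation hexamer AATAAA in capitals where a probe holds it, on the strand as listed. The file headers place these positions on mm9.
Cyp26b1, chr6:84521952-84522011, minus strand: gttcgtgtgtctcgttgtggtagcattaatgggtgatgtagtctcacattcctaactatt
Stra6, chr9:58001701-58001760, plus strand: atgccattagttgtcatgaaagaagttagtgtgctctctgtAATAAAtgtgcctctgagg
Rbp4, chr19:38191120-38191179, minus strand: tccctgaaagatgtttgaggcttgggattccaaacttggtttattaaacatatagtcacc
Aldh1a1, chr19:20717764-20717823, plus strand: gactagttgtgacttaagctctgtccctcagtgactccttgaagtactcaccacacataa
Aldh1a2, chr9:71143931-71143990, plus strand: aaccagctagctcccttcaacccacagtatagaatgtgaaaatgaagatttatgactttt
Aldh1a3, chr7:73535785-73535844, minus strand: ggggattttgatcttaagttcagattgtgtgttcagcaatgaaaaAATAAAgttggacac
The hexamer stood in 3 of the 9 member probes (those of Lrat, Stra6 and Aldh1a3) and in 12.6% of all 39429 probes. The 3 Aldh1a probes, whose genes are paralogs, matched one another at no more than 26 of 60 bases in the best ungapped alignment. Each matched the probe of the further paralog Aldh1a7 at no more than 21 of 60. Over all 9 member probes, the closest other probe on the array matched at 31 to 34 of 60 bases. Whether a probe lies in an exon or a UTR was not used here.

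The 9 genes lay below each array's median signal of 65.8 (choline-deficient) or 48.1 (choline-sufficient), except Cyp26b1 on the choline-sufficient array. Processed signals, which are background-subtracted fluorescence in scanner units, ran from 0.877 to 46.4 on the choline-deficient array and from 0.890 to 159.2 on the choline-sufficient array, where the 75th percentiles of all non-control spots were 1609 and 1280. The highest of 153 negative control spots read 1.504 on the choline-deficient and 1.33 on the choline-sufficient array. The scanner software called 6 members well above background on the choline-deficient array and 3 on the choline-sufficient array. Over all gene names the shares were 70.3% and 68.2%. The members above background on both arrays were Stra6, Aldh1a1 and Cyp26b1. Rlbp1, Rbp4 and Aldh1a3 were above background on the choline-deficient array only, a state that 3.35% of all genes shared. No member was above background on the choline-sufficient array only (1.21% of all genes), and Rpe65, Lrat and Aldh1a2 were so on neither (28.5%).

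**Figure D1:**
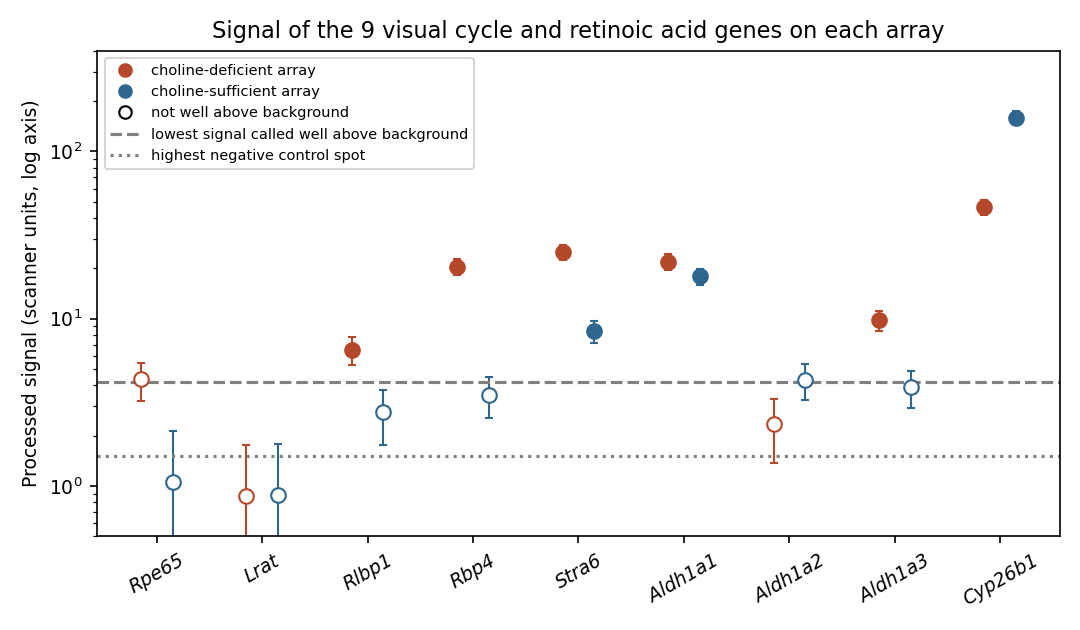
Processed signal (scanner units, log axis) of the 9 genes on the choline-deficient (left of each pair) and choline-sufficient array, with the software's error as bars, which run off the lower edge where the error is about as large as the signal. Open points were not well above background, the dashed line is the lowest signal called well above background (4.16, on the choline-deficient array; 4.26 on the choline-sufficient array), and the dotted line the highest negative control spot (1.504). Cyp26b1 is the brightest gene on both arrays and the one filled pair in which the choline-sufficient point is the higher.

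Each difference below is on the log2 scale, choline-deficient minus choline-sufficient, after each array was set to its 75th percentile. The error after ± is the scanner software's, carried through from both arrays, and covers the array measurement and not the spread between cultures. Among the 3 members measured on both arrays, Stra6 was higher without choline by more than 2-fold, Cyp26b1 lower by more than 2-fold, and Aldh1a1 in between. Being measured on both arrays held for 3 of the 9 members and for 66.9% of all genes. Of the 19818 genes so measured, the share higher by 2-fold or more was 7.67% and the share lower by as much was 3.88%. Among the 6273 measured genes no brighter than Cyp26b1, these shares were 9.02% and 4.96%. The median of the 3 members was -0.04, that of all measured genes -0.10 and that of the dim measured genes -0.04. With 3 members, nothing particular to them can be read from these shares.

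Of the visual cycle genes, none gave a signal on both arrays that the software called well above background. Lrat, whose product makes retinyl esters, read 0.877 ± 0.873 on the choline-deficient and 0.890 ± 0.887 on the choline-sufficient array. Both values are surrogates that the software put in place of a signal not distinguishable from background, and they lie within the range of the negative controls. Rpe65, the retinoid isomerase of the pigment epithelium, read 4.34 ± 1.13 on the choline-deficient array, above every negative control spot but not well above background. On the choline-sufficient array its value of 1.06 ± 1.06 was a surrogate, so no fold is given. Rlbp1 read 6.52 ± 1.20 on the choline-deficient array, where it was called above background, and 2.75 ± 1.004 on the choline-sufficient array, where it was not. The bound for Rlbp1 was therefore 1.22-fold higher without choline. In each such bound the dim array is given its lowest signal called well above background, or the probe's own signal where that is higher. No bound takes in the measurement error, so the true ratio may be smaller. That lowest signal is no strict limit either, as Kcnj10 read 4.78 on the choline-sufficient array and was not called. Taken at face value, the log2 ratio of the signals of Rlbp1 was 0.91 ± 0.59, less than 2 errors from 0.

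Rlbp1 is also a marker of Muller glia, and Rpe65, Lrat and Rlbp1 are markers of the pigment epithelium. Of 17 pigment epithelium markers, these 3 included, 8 were measured on both arrays and 8 were above background on neither, among them Best1, Ttr, Tyrp1 and Dct. Their summed signal was 9456 on the choline-deficient and 10708 on the choline-sufficient array, most of it from Serpinf1, Mitf and Krt18, genes that other cells express as well. Summed signals here and below are processed signals before scaling. The 75th percentile, to which scaling sets each array, was 1609 on the choline-deficient and 1280 on the choline-sufficient array. Of 12 Muller glia markers, 8 were measured and 5 of these were higher without choline by 1.5-fold or more, a size reached by 14.8% of all measured genes. Apart from Vim, these were Dkk3 at 9.14-fold, Sox9 at 5.30-fold, Slc1a3 at 3.17-fold and Hes1 at 2.64-fold higher. The other measured ones were Car14, Aqp4 and Glul, with log2 differences of -0.51 ± 0.21, -0.32 ± 0.22 and 0.26 ± 0.20. With median or quantile scaling 1 of the Muller glia markers was lower by 1.5-fold or more. The summed signal of the Muller glia markers before scaling was 72130 on the choline-deficient and 22516 on the choline-sufficient array. Within it Vim, which many cultured cells express, stood at 50913 and 19296 and Dkk3 at 16489 and 1434. Kcnj10 and Sox2 were above background on neither array. Of 19 photoreceptor markers, 7 were measured on both arrays. The summed signals before scaling were 2630 on the choline-deficient and 2493 on the choline-sufficient array, mostly from Rbp3 at 2123 and 2183. After scaling, Rbp3 differed by -0.37 ± 0.20 on the log2 scale. The measured photoreceptor markers included 2 at least 1.5-fold higher without choline, Sag and Pde6h, and 0 lower by that size. After normexp 0 were higher. Gnat2 read 365.7 on the choline-deficient and 197.4 on the choline-sufficient array. Crx, Nrl, Nr2e3 and Rcvrn were above background on neither. The part of any such cell in these results was not tested.

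Retinol carriage and uptake were read by Rbp4 and Stra6, and both were higher on the choline-deficient array. Rbp4, the blood carrier of retinol, read 20.5 ± 2.23 on the choline-deficient array and 3.52 ± 0.953 on the choline-sufficient array. Before background subtraction its spot averaged 50.6 over a local background of 25.0 on the choline-deficient array, and 29.4 over 23.5 on the choline-sufficient array. Only the choline-deficient value was well above background, so Rbp4 was given a bound, 3.83-fold higher there. It was the largest bound among the 3 members above background on that array only. The ratio of the Rbp4 signal to its dim signal was 2.21 ± 0.42 on the log2 scale. Rbp4 is made in bulk by liver and fat. Of 8 hepatocyte and adipocyte markers 2 were measured on both arrays and 6, Alb and Adipoq among them, were above background on neither. The summed signals before scaling were 54.9 on the choline-deficient and 40.04 on the choline-sufficient array. The measured adipocyte marker Fabp4 read 16.7 on the choline-deficient and 5.52 on the choline-sufficient array. It was 2.41-fold higher without choline, the direction of Rbp4, but not by 1.5-fold after normexp. The measured hepatocyte marker Serpina1a went the other way, with a log2 difference of -0.39 ± 0.27. The part of liver or fat cells in the Rbp4 result was not tested.

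Stra6, the receptor that takes retinol from RBP4 and a gene named for its response to retinoic acid, read 25.0 ± 2.67 on the choline-deficient and 8.44 ± 1.26 on the choline-sufficient array. Both were above background. It stood 2.36-fold higher without choline, a log2 difference of 1.24 ± 0.26, or 4.67 times its error. After normexp background correction, a setting that also adds an offset of 50, above both of these signals, the difference was 0.03, so the call did not hold there. Which of the correction and the offset moved it was not tested. Under the same setting Rbp4's bound was 0.09.

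The ALDH1A enzymes, which make retinoic acid from retinal, gave 3 different pictures. Aldh1a1 was the steady one of the 3, with 21.9 ± 2.37 on the choline-deficient and 17.9 ± 2.01 on the choline-sufficient array. Its log2 difference was -0.04 ± 0.23, smaller than its error, and its direction followed the scaling. Aldh1a3 read 9.82 ± 1.33 on the choline-deficient array, where it was above background, and 3.905 ± 0.988 on the choline-sufficient array, where it was not. The bound for Aldh1a3 was 1.83-fold higher without choline and took in no measurement error, so the true ratio may be smaller. The bounds of Aldh1a3 and of Rlbp1 turned negative after normexp, at -0.12 and -0.19 on the log2 scale, so neither direction held there. Aldh1a2 read 2.33 ± 0.967 on the choline-deficient and 4.30 ± 1.05 on the choline-sufficient array. It was well above background on neither, and no fold is given.

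Cyp26b1, which oxidises retinoic acid to products that are cleared, was the brightest member and the one with the largest difference relative to its error. It read 46.4 ± 4.75 on the choline-deficient array and 159.2 ± 15.9 on the choline-sufficient array. Before background subtraction its spot averaged 72.6 over a local background of 27.0 on the choline-deficient array and 188.3 over 26.0 on the choline-sufficient array. It stood 4.31-fold lower without choline, a log2 difference of -2.11 ± 0.21, or 10.2 times its error. Over all settings tried it lay between -2.23 and -1.42, below -1 each time. Among the members with a signal above background it was the 1 gene at least 2-fold lower without choline.

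**Figure D2:**
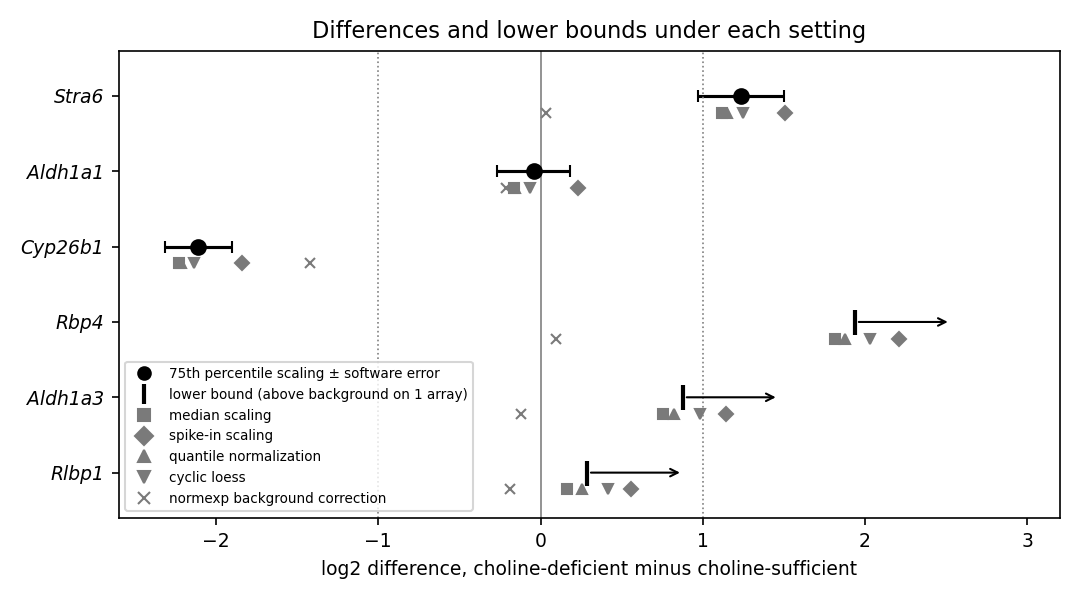
Log2 differences, choline-deficient minus choline-sufficient, of the 3 members measured on both arrays (black points with the software's error) and lower bounds of the 3 members above background on the choline-deficient array only (bars with arrows), with grey marks for the other settings. Dotted lines mark 2-fold. The bounds take in no measurement error. Cyp26b1 lies below -1 under each setting, while Stra6, Rbp4, Aldh1a3 and Rlbp1 fall to between -0.19 and 0.09 after normexp.

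The precision of dim spots could be read from probes printed many times. The spots of 268 such probes, each with at least 8 usable spots, gave an SD of the log2 difference with a median of 0.05. For the 46 of these whose signals lay in the range of the measured members, 8.44 to 159.2, the median was 0.13 and the highest 0.36. The differences of Stra6 and Cyp26b1 were larger than that highest value, and that of Aldh1a1 was smaller than the median. This spread is within an array pair and does not cover cultures.

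**Figure D3:**
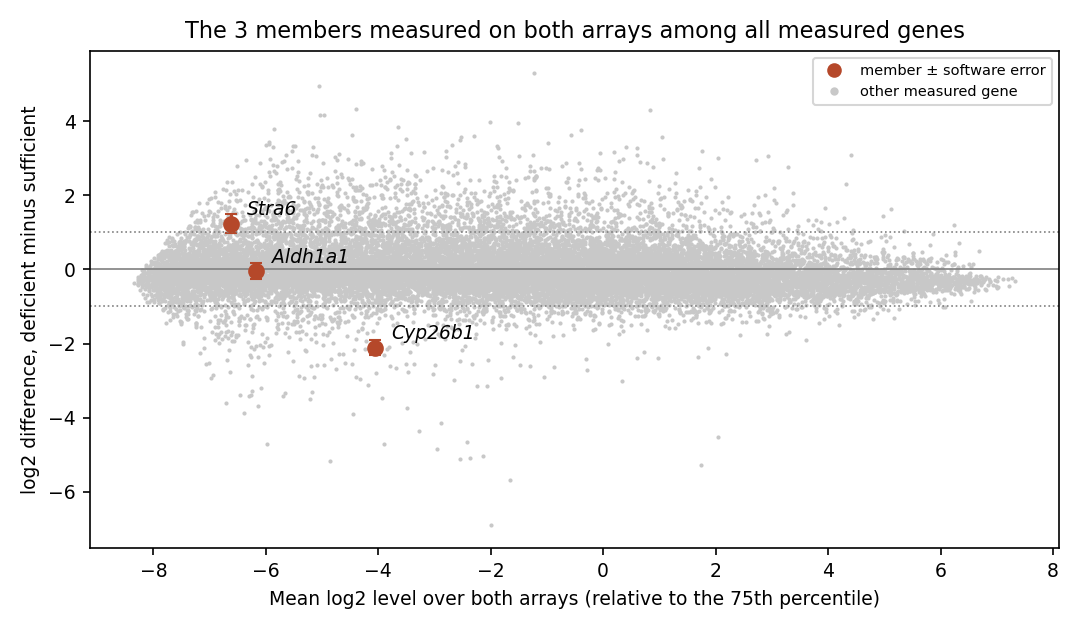
Log2 difference (choline-deficient minus choline-sufficient) against the mean log2 level over both arrays for every measured gene (grey), with the 3 members measured on both arrays in colour and the software's error as bars. Dotted lines mark 2-fold. All 3 members sit in the left part of the plot, with Stra6 above 1, Aldh1a1 near 0 and Cyp26b1 below -2.

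The rest of the retinoid pathway was described by lists chosen for their known roles, with a size of 1.5-fold. Earlier results of these data were known when the lists were chosen, so their counts are description only. Of all measured genes 14.8% were higher without choline by this size and 14.1% were lower. Among the oxidoreductases that interconvert retinol and retinal, 15 of 19 were measured, and 2 of these were higher and 1 lower (median -0.12). With median scaling 1 was higher and 2 lower, and with spike-in scaling 5 were higher and 1 lower. Dhrs3, which reduces retinal back to retinol, read 2102 on the choline-deficient and 256.04 on the choline-sufficient array, a log2 difference of 2.71 ± 0.20 or 6.53-fold higher. Rdh14, a retinol dehydrogenase, differed by 0.65 ± 0.20. Adh7, an alcohol dehydrogenase that oxidises retinol, read 699.02 and 1103 on the choline-deficient and choline-sufficient arrays and differed by -0.99 ± 0.20. Rdh13 differed by -0.55 ± 0.21, inside 1.5-fold.

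Among other retinoid-binding and transport proteins, 7 of 12 were measured, with 3 higher, 0 lower and a median of 0.41. Median scaling gave 2 higher and 1 lower, and spike-in scaling 4 higher and 0 lower. Fabp5, which can carry retinoic acid to PPAR-delta, differed by 0.88 ± 0.20, and Crabp2, which carries it to RAR, by 0.62 ± 0.20. Rbp7 differed by -0.56 ± 0.21. Crabp1, a second retinoic acid carrier, read 29.9 on the choline-deficient and 4.44 on the choline-sufficient array, above background on the first only. Its bound of 5.35-fold higher was the plain ratio of its scaled signals and took in no error. Abca4, the photoreceptor exporter of retinal adducts, read 3.12 on the choline-deficient and 10.6 on the choline-sufficient array with its brighter probe. It was above background on the second only, with a bound of 3.19-fold lower that also took in no error.

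In the list of retinyl ester and provitamin A metabolism 6 of 9 were measured, 1 of them higher and 1 lower. Spike-in scaling gave 2 higher and 0 lower, and normexp 0 higher and 1 lower. Bco2, a carotenoid-cleaving enzyme, differed by 1.48 ± 0.22, with 69.3 on the choline-deficient and 19.7 on the choline-sufficient array. Pnpla2, a lipase of lipid droplets, differed by -0.75 ± 0.20. Of 4 further genes of retinoic acid synthesis and breakdown 3 were measured, and 0 were 1.5-fold apart in either direction. With spike-in scaling or cyclic loess 1 was higher. Cyp26a1, of the same enzyme family as Cyp26b1, read 17.2 on the choline-deficient and 9.24 on the choline-sufficient array. It differed by 0.56 ± 0.28, just inside 1.5-fold and in the opposite direction from Cyp26b1. Aldh1a7, the close paralog of Aldh1a1, read 19.1 on the choline-deficient and 15.2 on the choline-sufficient array, and its log2 difference was -0.0050 with an error of 0.24. Cyp26a1 and Aldh1a7 were named here after their values were seen.

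All 14 retinoid receptors and coregulators were measured, with 3 higher, 0 lower and a median of 0.01. The receptor gene Rarb differed most, at 2.47 ± 0.27 or 5.54-fold higher, with its 2 measured probes at 2.34 and 2.60. Its brightest probe read 495.3 on the choline-deficient and 64.9 on the choline-sufficient array. Rara differed by 0.91 ± 0.20, while the coactivator gene Ncoa1 differed by -0.52 ± 0.20. After median scaling 2 were higher and 3 lower, and after spike-in scaling 5 were higher and 0 lower.

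**Figure D4:**
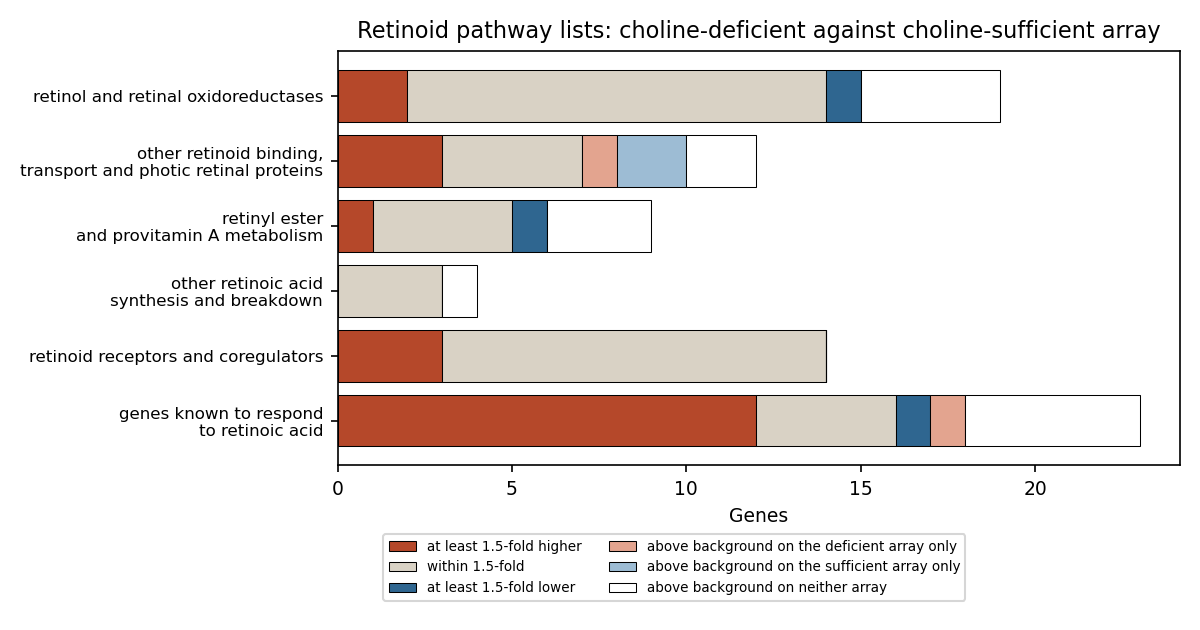
Number of genes in each of 6 retinoid lists by detection and by difference between the choline-deficient and choline-sufficient array. The list of genes known to respond to retinoic acid holds 12 genes higher without choline by that size and 1 lower, while in the oxidoreductase list 12 of 15 measured genes lie within 1.5-fold.

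The listed genes known to respond to retinoic acid tended to be higher without choline. That list, too, was chosen with earlier results of these data known. Of 23 listed genes 17 were measured, of which 12 were at least 1.5-fold higher and 1 lower, with a median log2 difference of 0.91 beside -0.10 over all measured genes. The list takes in Cyp26a1 but not the member Cyp26b1, which went the other way at -2.11 ± 0.21 and is in none of these counts. The list shares Stra6 with the members and 5 further genes with the lists above, so the counts overlap. Dhrs3 and Rarb, both direct targets of the retinoic acid receptors, led it with the values given above. Rarres1 differed by 1.60 ± 0.21, with 109.8 on the choline-deficient and 28.8 on the choline-sufficient array. The transglutaminase gene Tgm2 differed by 1.18, the homeobox gene Cdx1 by 1.14, the antiproliferative gene Btg2 by 1.05, and Nr2f2, Meis1 and Meis2 by 0.91, 0.87 and 0.67. These 6 fall outside the naming rule and were chosen after their values were seen. So was Hoxa5, the 1 gene at least 1.5-fold lower, which read 162.4 on the choline-deficient and 292.6 on the choline-sufficient array and differed by -1.18. Rarres2, above background on the choline-deficient array only, had a bound of 1.05-fold. Stra8, Hoxb1, Hoxb4, Hoxd4 and Hoxb5 were above background on neither.

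The count of 12 was 8 after normexp, 10 with median scaling and 14 with spike-in scaling or cyclic loess and the count of lower genes was 1 under each of the settings tried. Several listed genes answer to signals other than retinoic acid, and retinoic acid itself was not measured. Fibroblast markers also tended to be higher without choline. Of 10 such markers 9 were measured, 7 of them at least 1.5-fold higher and 0 lower, and Lum was above background on neither. Of all measured genes 14.8% were higher by that size. The fibroblast markers' summed signals before scaling were 210945 on the choline-deficient and 23240 on the choline-sufficient array, with Col1a2 at 100347 and 9360. Their part in the result was not tested. In bulk samples, more cells of a type and more RNA per cell cannot be told apart.

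**Figure D5:**
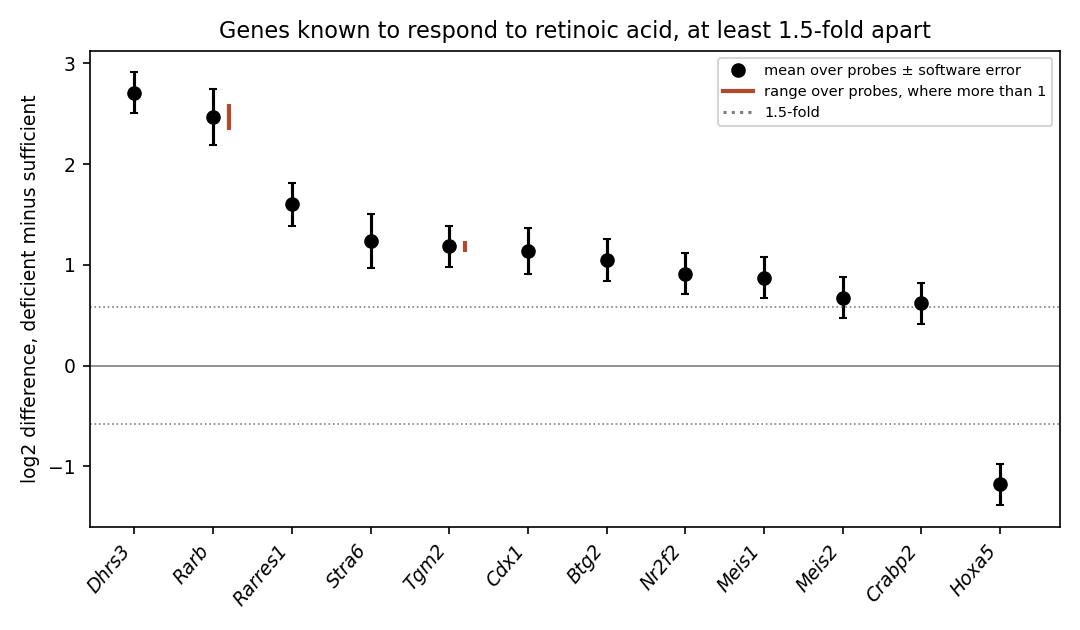
Log2 difference, choline-deficient minus choline-sufficient, of 12 of the 13 measured genes known to respond to retinoic acid that were at least 1.5-fold apart, with the software's error as bars and the range over probes as coloured lines. Dotted lines mark 1.5-fold. Dhrs3 and Rarb stand above 2, and Hoxa5 is the 1 gene below 0.

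Promoters of 8 of the 9 members, in RefSeq's 300-base windows on GRCm38.p6 (13 windows in all), were searched on both strands for retinoic acid receptor motifs. The motifs were any pair of half-sites in the same direction, 1, 2 or 5 bases apart, where a half-site was the consensus AGGTCA or one of its common variants, namely AGTTCA first, GGGTCA next and finally GGTTCA. They were present in 0 of the 13 windows, beside 0.222%, 0.268% and 0.0974% of all 32851 windows. The single half-site AGGTCA was in 0 of the 13 and in 16.3% of all. This says only that these letters are not in these windows.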

How the data were processed

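Per the submitters' processing notes, Agilent Feature Extraction 12.1.1.1 wrote the scanner files of the 2 single-colour arrays. The deposited intensity values are background-subtracted and detrended within each array, with no normalization between arrays, per the file headers. In the deposited value table each entry is a linear ratio of the processed signal to a fixed number per array, 1609 (choline-deficient) or 1280 (choline-sufficient), uncentred and in the direction of the scanner values, with medians of 0.0409 and 0.0376 over non-control spots. The sources used here do not describe that step.

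Groups follow the treatment labels. Control spots and outlier spots (92 on the choline-deficient and 86 on the choline-sufficient array) were left out. Log2 signals were centred on each array's 75th percentile, spots of a probe were averaged, and genes were valued by the mean of their probes well above background on both arrays (26463 of 39426 probes). On the choline-deficient array 70.7% of spots were well above background and on the choline-sufficient array 68.5%, and 0 were saturated. The number of arrays limits the precision. All 9 members' accessions carry the same symbol in RefSeq. Members and lists were chosen with earlier results of these data known. Every member is named. Marker and target genes named for being at background on both arrays were picked with their values in view. So were the pigment epithelium, glial, photoreceptor, fibroblast, hepatocyte and adipocyte markers given with values. From each pathway list the rule names up to 4 genes with the largest differences over 2 errors and probes of one sign, and up to 2 with the largest bound among genes above background on 1 array. Alternatives were median, spike-in (5 bright probes), quantile and cyclic loess scaling, normexp (limma 3.58.1), the value table, no filter, the brightest probe and other sizes and calls. R 4.3.3 and Python 3.11.15 were used, and the counting was tested on simulated data. Genes no brighter than Cyp26b1 were set apart as a comparison after the data were seen. Some genes that this rule names are left out of the text.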

Additional observations from a re-analysis of the deposited data

How the results depend on the processing

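No paired analysis was possible because each group holds 1 array and no test was run. The 1 member at least 2-fold higher became 0 after normexp background correction, and 4 with no filter on dim probes, when Rpe65, Rbp4 and Aldh1a3 joined Stra6. The 1 member at least 2-fold lower became 2 with no filter, when Aldh1a2 joined Cyp26b1. These additions follow from the construction of that setting, which admits probes at background. Both counts were 1 under the other settings tried. Aldh1a1 differed by 0.23 with spike-in scaling, in the opposite direction from the main value, and by -0.21 after normexp. The lower bounds of Rlbp1 and Aldh1a3 were -0.19 and -0.12 after normexp. The offset of 50 in normexp exceeds most members' signals, and its share in these shifts was not tested. Relative to the 75th percentile, all genes shift by -0.12 with median scaling and by 0.27 with spike-in scaling. Members above background on 1 array or both numbered 6, and 8 by either laxer call. Signals this close to background limit every fold given for these genes.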
